A study of Mus musculus with 14 samples.

Results

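The level of 10 genes through which glia build, restrain or remove synapses was described in the superior colliculus of mouse pups: the thrombospondin genes Thbs1, Thbs2, Thbs3 and Thbs4, the related matricellular genes Sparcl1 (hevin) and Sparc, the glypican genes Gpc4 and Gpc6, Chrdl1 and Megf10. They were chosen by symbol for their known function, with earlier results of these data known. All 10 were matched by Ensembl ID among the 55359 gene IDs counted, of which 52083 had a symbol, and all 10 passed the low-count filter that left 20330 genes for the tests. The study measured poly-A RNA in 14 libraries of ICR/CD-1 pups at postnatal day 6, from the superficial and the deep layer of the colliculus, a midbrain centre whose superficial layer receives the retinal axons. Each library held the pooled tissue of 3 brains, and nothing in the labels describes the pools further, so the spread behind the p-values is that between pools, not between pups. The 4 groups were cbx superficial (4 libraries), saline superficial (3), cbx deep (4) and saline deep (3). Pups of the cbx groups had received 0.3 to 0.5 µL of 50 mM carbenoxolone, a gap junction blocker, into the vitreous of the eye between postnatal days 0 and 1 to stop retinal waves. Those of the saline groups had received saline by the same route. All pups therefore went through anaesthesia on ice, the eyelid cut and the eye injection.

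Astrocytes release proteins that decide where and when synapses form. Thrombospondins and hevin start new synapses, SPARC counteracts hevin, glypicans draw AMPA-type glutamate receptors to young synapses, and chordin-like 1, the product of Chrdl1, drives the change to the mature receptor type. Megf10 is a receptor with which astrocytes take up synapses. Much of this was worked out with rodent retinal ganglion cells and in the visual system, where the first postnatal weeks are the time of synapse formation.

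The largest differences in these genes lay between the layers. Sparcl1, Thbs2, Thbs4 and, by less, Chrdl1 were all higher in the superficial than in the deep layer in both the cbx and the saline pools. Thbs3 was lower there in both, though 5 of 15 alternatives lost its call in the saline pools. Carbenoxolone went with 1 change past the threshold: Chrdl1 was lower in cbx than in saline superficial tissue, at 11.2 CPM (SD 0.900, n = 4) in cbx superficial against 16.6 CPM (SD 0.641, n = 3) in saline superficial libraries. Of all genes tested, 1.65% were called lower in that comparison. The Chrdl1 call was lost in edgeR when any 1 saline superficial library, or saline pool 1 and cbx pool 4, was left out. CPM, the usual unit of counts relative to library size, were scaled with TMM factors, and a gene was called changed at an adjusted p under 0.05 in edgeR's quasi-likelihood test over all 20330 genes. In bulk tissue, fewer cells of a type and less RNA per cell cannot be told apart.

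The promoter windows of 3 thrombospondin genes are shown because these genes differed between the layers in opposite directions, Thbs2 and Thbs4 being higher and Thbs3 lower in superficial tissue. RefSeq windows of 250 bases before to 50 after the gene start (GRCm38.p6) were matched for Thbs2, Thbs3, Thbs4, Sparc and Gpc4. The windows printed are chr17:14694213-14694512 (minus strand) for Thbs2, chr13:92794769-92795068 (minus strand) for Thbs4 and chr3:89214930-89215229 (plus strand) for Thbs3. Capitals mark matches on either strand to TATAAA (the core of a TATA box), GGGCGG (a GC box), CCAAT or TGANTCA (an AP-1 site), none of which overlap each other here.
Thbs2: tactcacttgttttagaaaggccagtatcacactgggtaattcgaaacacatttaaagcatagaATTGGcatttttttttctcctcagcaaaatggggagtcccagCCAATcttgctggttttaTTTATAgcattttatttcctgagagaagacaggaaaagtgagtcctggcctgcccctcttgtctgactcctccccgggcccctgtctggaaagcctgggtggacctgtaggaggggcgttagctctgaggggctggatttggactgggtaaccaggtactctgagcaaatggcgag
Thbs4: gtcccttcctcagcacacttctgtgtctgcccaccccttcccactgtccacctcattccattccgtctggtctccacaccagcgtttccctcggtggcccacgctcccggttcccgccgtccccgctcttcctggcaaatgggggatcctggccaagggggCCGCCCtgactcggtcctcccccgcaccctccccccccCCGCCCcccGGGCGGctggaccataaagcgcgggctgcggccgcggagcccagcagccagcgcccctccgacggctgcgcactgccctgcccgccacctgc
Thbs3: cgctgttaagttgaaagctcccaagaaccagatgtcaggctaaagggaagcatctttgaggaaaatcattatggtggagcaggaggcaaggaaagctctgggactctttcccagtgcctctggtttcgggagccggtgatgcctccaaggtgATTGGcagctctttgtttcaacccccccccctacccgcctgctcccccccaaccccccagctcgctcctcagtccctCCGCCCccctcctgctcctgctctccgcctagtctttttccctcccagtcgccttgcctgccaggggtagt
Among 32851 RefSeq windows of this length, TATAAA was found in 13.6%, GGGCGG in 35.7%, CCAAT in 37.4% and TGANTCA in 7.81%. The Thbs2 window held 1 TATAAA and 2 CCAAT matches. The TATAAA match, at position -126 from the gene start, was on the strand opposite to the gene, and whether it acts as a TATA box was not tested. The Thbs4 window held 3 GGGCGG matches, and the Thbs3 window held 1 GGGCGG and 1 CCAAT match. The Thbs4 window was the richest of the 3 in G and C, at 72.0%, against 59.0% for Thbs3 and 48.3% for Thbs2.

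Total counts ranged from 32004952 to 48776827 per library. Markers of astrocytes, neurons, microglia, oligodendrocytes, vessels and meninges were detected in both layers. Of 8 colliculus markers, 2 were higher and 6 lower in superficial than in deep tissue in both the cbx and the saline pools. The pools differed in sex. Ddx3y, on the Y chromosome, was lowest in cbx pool 4, and Xist, expressed from the inactive X chromosome, was lowest in saline pool 1. Ddx3y reached at most 38.6 CPM in cbx superficial libraries, against 37.0 to 70.8 CPM in saline superficial libraries. Xist was at 275 to 1127 CPM in cbx superficial and at 1.94 to 526 CPM in saline superficial libraries. The sex of the pools thus went with treatment. Chrdl1 and Gpc4 are on the X chromosome, and their values without these pools are given with the results they touch. That omission was not shown to balance sex in the rest, so for Chrdl1 and Gpc4 carbenoxolone and sex cannot be told apart. The same limit holds for all other genes and gene counts compared between cbx and saline, on whatever chromosome. Whether sex had a part in those differences was not tested.

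Set per kilobase of exon, so that genes can be compared, hevin and SPARC stood far above the other 8 genes in every group. In cbx superficial libraries Sparcl1 averaged 334 CPM per kb (SD 16.2, n = 4) and Sparc 181 CPM per kb (SD 20.9). Saline superficial libraries gave 333 CPM per kb (SD 44.1, n = 3) for Sparcl1 and 165 CPM per kb (SD 12.99) for Sparc. The order was the other way round in the deep layer. There Sparc averaged 149.6 CPM per kb (SD 11.6, n = 4) in cbx and 176 CPM per kb (SD 15.9, n = 3) in saline libraries, above Sparcl1 at 96.6 CPM per kb (SD 5.76) in cbx and 101 CPM per kb (SD 9.33) in saline libraries. The libraries of these neighbours did not overlap in any group.

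The next gene in the order was far lower. Gpc4 came next in the superficial groups, at 4.82 CPM per kb (SD 0.797) in cbx and 4.68 CPM per kb (SD 0.275) in saline libraries, and overlapped with Thbs3, its neighbour below. Thbs3 came next in the deep groups, at 6.57 CPM per kb (SD 1.40) in cbx and 6.20 CPM per kb (SD 0.151) in saline libraries, apart from Gpc4 below it. Thbs1, Gpc6, Chrdl1, Megf10 and, in superficial tissue, Thbs2 lay between 1.21 and 3.96 CPM per kb on average, and many neighbours among them overlapped. Thbs4 was the lowest in all 4 groups, with averages of 0.714 CPM per kb in cbx superficial, 0.506 in saline superficial, 0.115 in cbx deep and 0.185 in saline deep libraries, and it overlapped with no neighbour.

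**Figure D1:**
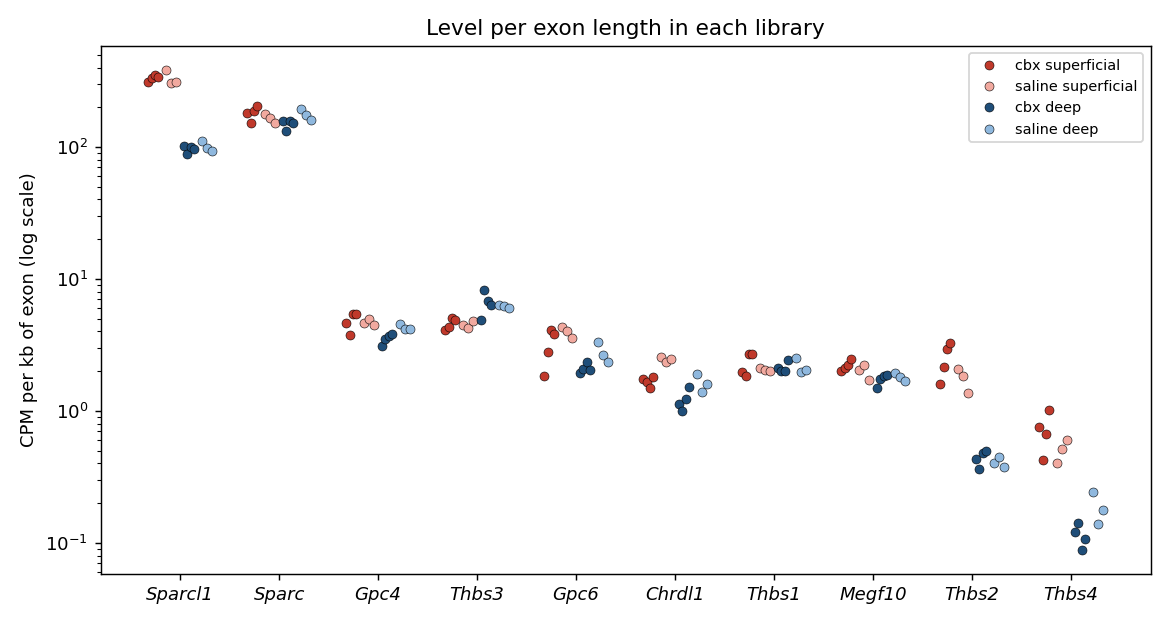
Level per kilobase of exon (CPM per kb, logarithmic axis) of the 10 genes in each library, coloured by group, with genes ordered by level. Sparcl1 and Sparc lie at 88.6 CPM per kb or more in every library, the other 8 genes at 8.29 or less, and only in the deep groups does Sparcl1 lie under Sparc.

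Thbs2 (ENSMUSG00000023885, chromosome 17), a thrombospondin that astrocytes secrete and that connective tissue also makes, had 11.3, 14.9, 20.5 and 23.1 CPM in cbx superficial and 14.5, 12.9 and 9.61 CPM in saline superficial libraries. In the deep layer it had 3.04, 2.54, 3.35 and 3.48 CPM after cbx and 2.83, 3.14 and 2.62 CPM after saline. Every superficial library was above every deep one. The log2 difference between superficial and deep tissue was 2.50 (SE 0.200, edgeR adjusted p = 4.07e-08) in the cbx pools and 2.11 (SE 0.235, edgeR adjusted p = 4.4e-06) in the saline pools. The cbx superficial libraries spread from below to above the saline ones. Their difference of 0.50 (SE 0.198, 95% interval 0.08 to 0.92) did not pass the threshold over all genes (edgeR adjusted p = 0.158). It passed without cbx superficial replicate 1, the lowest of its group (0.66, edgeR adjusted p = 0.0267), and with no low-count filter (0.50, edgeR adjusted p = 0.0097). Deep tissue gave a cbx difference of 0.11 (SE 0.233, 95% interval -0.38 to 0.61, edgeR adjusted p = 0.884).

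Markers of meningeal fibroblasts, which cover the surface of the colliculus, were higher where Thbs2 was higher between the layers. All 12 of 12 were higher in superficial than in deep tissue in both the cbx and the saline pools, and 5 of 12 were higher in cbx than in saline superficial tissue. Their summed level was 961 to 1900.3 CPM in cbx superficial, 730.5 to 1093 CPM in saline superficial, 53.3 to 71.2 CPM in cbx deep and 82.6 to 98.8 CPM in saline deep libraries. The deep cbx sums were thus all below the deep saline ones, while Thbs2 overlapped there. In that comparison 0 of 12 markers were called by edgeR or limma-voom and 1, lower, in DESeq2, 5 had an unadjusted p under 0.05, and the median was -0.46. None had 0 counts in a whole group, and Lum, Slc22a6 and Ogn averaged under 1 CPM in both deep groups. Thbs2 amounted to 1.12% to 1.55% of that sum in cbx superficial and 1.32% to 1.48% in saline superficial libraries. In the deep layer it amounted to 4.62% to 5.70% after cbx and 3.17% to 3.25% after saline. The part of the meningeal tissue in the Thbs2 result was not tested.

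Thbs4 (ENSMUSG00000021702, chromosome 13), a thrombospondin of the pentameric kind, had 2.47, 1.39, 2.19 and 3.35 CPM in cbx superficial and 1.31, 1.70 and 1.98 CPM in saline superficial libraries. Deep libraries had 0.398, 0.464, 0.292 and 0.354 CPM after cbx and 0.795, 0.453 and 0.579 CPM after saline, from 10 to 25 counts each. All superficial libraries were above all deep ones. On the log2 scale superficial exceeded deep tissue by 2.63 (SE 0.303, edgeR adjusted p = 1.34e-06) in the cbx pools and 1.45 (SE 0.338, edgeR adjusted p = 0.00409) in the saline pools. The cbx differences were 0.50 (SE 0.289, edgeR adjusted p = 0.345) in the superficial layer and -0.68 (SE 0.351, edgeR adjusted p = 0.374) in the deep layer. Neither passed, and the cbx and saline libraries overlapped in both layers. The difference between these effects was 1.17 (SE 0.454, edgeR adjusted p = 0.498). The meningeal markers were also higher in superficial tissue, with median log2 differences of 4.55 in the cbx and 3.44 in the saline pools. The part of the meningeal tissue in the Thbs4 result was not tested.

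Thbs3 (ENSMUSG00000028047, chromosome 3), another pentameric thrombospondin, had 19.8, 20.8, 24.5 and 23.4 CPM in cbx superficial and 21.6, 20.6 and 23.3 CPM in saline superficial libraries. Deep tissue gave 23.6, 40.0, 32.8 and 30.4 CPM after cbx and 30.4, 30.1 and 29.1 CPM after saline. It was the only one of the 10 genes called lower in superficial than in deep tissue. The log2 difference was -0.51 (SE 0.117, edgeR adjusted p = 0.00225) in the cbx pools, where cbx deep replicate 1 reached into the superficial range. In the saline pools it was -0.45 (SE 0.136, edgeR adjusted p = 0.0242) with no overlap. The saline call was lost without saline superficial replicate 1 or 2 (edgeR adjusted p = 0.0722 and 0.102), without saline deep replicate 1 or 2 (0.0697 and 0.0679), and without saline pool 1 and cbx pool 4 (0.208), while the difference stayed between -0.51 and -0.41 in all alternatives. The cbx difference was 0.02 (95% interval -0.24 to 0.29) in the superficial and 0.08 (95% interval -0.18 to 0.35) in the deep layer. On the other strand Mtx1 overlaps 6.6% of the exon bases of Thbs3, and as the strand setting of the counting is not given in the sources used here, reads there cannot be told apart.

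Thbs1 (ENSMUSG00000040152, chromosome 2), a trimeric thrombospondin like Thbs2, had 11.9, 11.2, 16.5 and 16.3 CPM in cbx superficial and 12.9, 12.4 and 12.2 CPM in saline superficial libraries. Deep libraries had 12.9, 12.2, 12.1 and 14.7 CPM after cbx and 15.4, 11.99 and 12.4 CPM after saline. The 4 groups overlapped throughout. Thbs1 was not called in any comparison, and its 95% interval ran from -0.15 to 0.37 for the layers in cbx pools and from -0.39 to 0.22 in saline pools. For cbx against saline it ran from -0.12 to 0.45 in the superficial and from -0.31 to 0.25 in the deep layer. The antisense gene Gm29233 covers 3.4% of its exon bases.

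**Figure D2:**
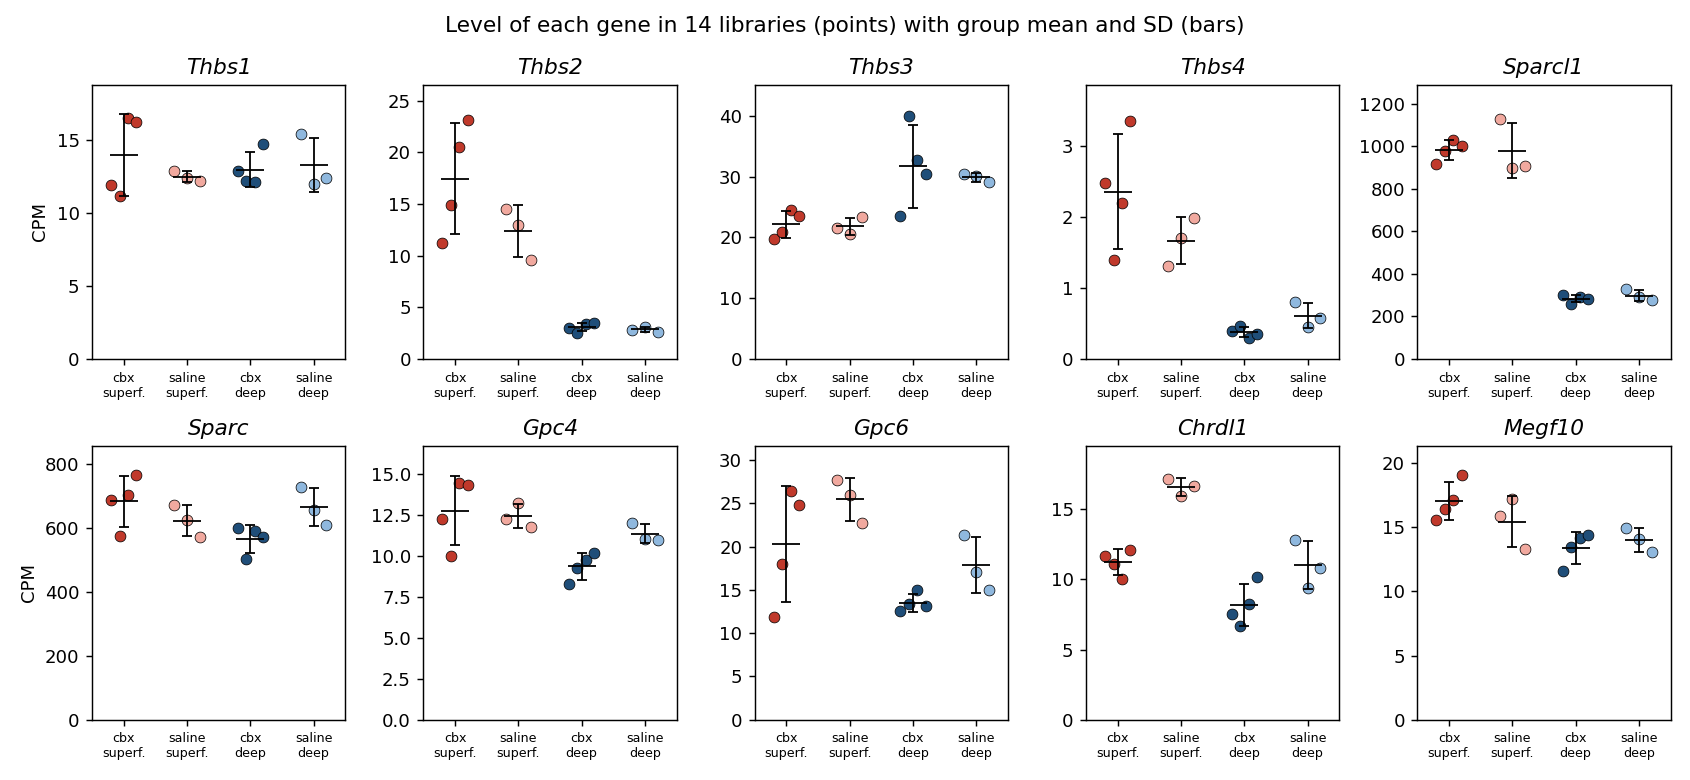
CPM of each of the 10 genes in the 14 libraries, by group (points, in order of replicate number), with the group mean and SD as bars and each axis starting at 0. Sparcl1, Thbs2 and Thbs4 are higher in every superficial than in every deep library, and Chrdl1 is lower in every cbx than in every saline superficial library.

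Sparcl1 (ENSMUSG00000029309, chromosome 5) encodes hevin, which astrocytes secrete and which bridges neurexin and neuroligin across the synaptic cleft. It had 917, 975, 1027 and 1003 CPM in cbx superficial and 1127, 899 and 907 CPM in saline superficial libraries. Deep tissue had 299, 260.3, 292 and 283 CPM after cbx and 328, 289 and 276 CPM after saline. Superficial libraries were all at 899 CPM or more and deep libraries all at 328 CPM or less. The log2 difference between the layers was 1.79 (SE 0.081, edgeR adjusted p = 3.95e-12) in the cbx pools and 1.72 (SE 0.093, edgeR adjusted p = 1.26e-10) in the saline pools, among the best supported of the 10 genes. No cbx effect was detected in either layer. Its difference was 0.0039 (95% interval -0.17 to 0.18) in the superficial and -0.07 (95% interval -0.25 to 0.11) in the deep layer, with a sign that changed between settings in both.

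The astrocyte markers went in both directions between the layers. Their summed level was 3913 to 4725 CPM in cbx superficial, 3984 to 4865 CPM in saline superficial, 2999.9 to 3458 CPM in cbx deep and 3389 to 4059 CPM in saline deep libraries. Of 12 markers, 5 were higher and 2 lower in superficial tissue of the cbx pools, and 2 were higher and 3 lower in the saline pools. The 2 higher in both were Gfap, an intermediate filament, at 5.50 (SE 0.384, edgeR adjusted p = 1.07e-06) in cbx pools and 6.08 (SE 0.462, edgeR adjusted p = 4.57e-06) in saline pools, and Aqp4, a water channel of astrocyte end feet, at 1.45 (SE 0.124, edgeR adjusted p = 2.06e-07) in cbx pools and 1.28 (SE 0.142, edgeR adjusted p = 7.94e-06) in saline pools. The 2 lower in both were S100b, a calcium-binding protein, at -0.93 (SE 0.0853, edgeR adjusted p = 7.11e-08) in cbx pools and -0.96 (SE 0.0983, edgeR adjusted p = 6.22e-07) in saline pools, and Slc1a2, a glutamate transporter, at -0.47 (SE 0.112, edgeR adjusted p = 0.00364) in cbx pools and -0.46 (SE 0.129, edgeR adjusted p = 0.0194) in saline pools. Sparcl1 amounted to 21.7% to 23.7% of the astrocyte sum in cbx superficial and 20.5% to 23.2% in saline superficial libraries. In deep tissue it was 8.45% to 9.34% after cbx and 8.09% to 8.19% after saline. Endothelial cells also express Sparcl1, and of 8 endothelial markers 5 were higher and 1 lower in superficial tissue of both the cbx and the saline pools; their part in the result was not tested.

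Sparc (ENSMUSG00000018593, chromosome 11), which counteracts hevin at synapses, had 689, 577, 705 and 768 CPM in cbx superficial and 672, 627 and 574 CPM in saline superficial libraries. Deep libraries had 599.9, 504, 592 and 571 CPM after cbx and 731, 656 and 612 CPM after saline. Between the layers Sparc differed far less than hevin did. In the cbx pools Sparc was higher in superficial tissue by 0.27 (SE 0.085, edgeR adjusted p = 0.0189), with libraries of the layers overlapping. That call was lost without cbx superficial replicate 4 (0.21, edgeR adjusted p = 0.0679), without cbx deep replicate 2 (0.19, edgeR adjusted p = 0.127), without cbx pool 4 and saline pool 1 (0.22, edgeR adjusted p = 0.103) and with trends of exon length and GC content removed (0.15, edgeR adjusted p = 0.149). The saline pools gave -0.09 (SE 0.098, edgeR adjusted p = 0.593). All 4 cbx deep libraries were below all 3 saline deep ones, at a log2 difference of -0.23 (SE 0.092) that did not pass over all genes (edgeR adjusted p = 0.216). The share of all genes whose groups separate in this way is not given. For this and the other genes, such separation is therefore a description and no test of its own. In the superficial layer the cbx difference was 0.13 (SE 0.092, edgeR adjusted p = 0.447), and the difference between these effects was 0.37 (SE 0.130, edgeR adjusted p = 0.447).

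Gpc4 (ENSMUSG00000031119, chromosome X), a glypican that astrocytes shed to draw AMPA receptors to synapses, had 12.3, 9.985, 14.5 and 14.3 CPM in cbx superficial and 12.3, 13.2 and 11.8 CPM in saline superficial libraries. Deep tissue gave 8.28, 9.28, 9.74 and 10.2 CPM after cbx and 12.02, 11.1 and 10.96 CPM after saline. The cbx deep libraries were the lowest group, all under the saline deep ones. Their log2 difference of -0.28 (SE 0.122, 95% interval -0.53 to -0.02) did not pass over all genes (edgeR adjusted p = 0.277). Superficial exceeded deep tissue in the cbx pools by 0.45 (SE 0.113, edgeR adjusted p = 0.00432), a call lost with length and GC trends removed (0.29, edgeR adjusted p = 0.0559). Without saline pool 1 and cbx pool 4 it was kept (0.43, edgeR adjusted p = 0.0317), and the deep cbx difference was again -0.28 (edgeR adjusted p = 0.536). In the saline pools the layer difference was 0.13 (SE 0.130, edgeR adjusted p = 0.567), and the difference between these layer effects was 0.32 (SE 0.172, edgeR adjusted p = 0.636).

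Gpc6 (ENSMUSG00000058571, chromosome 14), the glypican paired with Gpc4 in that role, had 11.8, 17.98, 26.4 and 24.8 CPM in cbx superficial and 27.7, 25.9 and 22.7 CPM in saline superficial libraries. In deep tissue it had 12.5, 13.4, 15.0 and 13.1 CPM after cbx and 21.4, 17.1 and 15.0 CPM after saline. The cbx superficial libraries spread the most, with replicate 1 at the level of deep tissue. Superficial exceeded deep tissue by 0.59 (SE 0.200, edgeR adjusted p = 0.0369) in the cbx pools and by 0.52 (SE 0.228, edgeR adjusted p = 0.151) in the saline pools. The saline difference passed with the pool as a replicate block (0.52, edgeR adjusted p = 0.0223), with only the groups compared (0.49, edgeR adjusted p = 0.00576) and with no low-count filter (0.49, edgeR adjusted p = 0.000612), and its libraries did not overlap between the layers. The cbx call was lost in limma-voom (adjusted p = 0.0665), with only the groups compared (edgeR adjusted p = 0.0681), without saline pool 1 and cbx pool 4 (edgeR adjusted p = 0.169), without cbx superficial replicate 3 or 4 (edgeR adjusted p = 0.101 and 0.0979) and without any cbx deep replicate (edgeR adjusted p between 0.0527 and 0.0881). After cbx, Gpc6 differed by -0.33 (SE 0.211, edgeR adjusted p = 0.419) in the superficial and -0.40 (SE 0.216, edgeR adjusted p = 0.413) in the deep layer, where the groups did not overlap. The deep difference passed with no low-count filter (-0.41, edgeR adjusted p = 0.0259).

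Chrdl1 (ENSMUSG00000031283, chromosome X), a secreted antagonist of BMP signalling that astrocytes use to mature synapses, had 11.7, 11.1, 10.04 and 12.1 CPM in cbx superficial libraries, from 383 to 474 counts. In saline superficial libraries it had 17.2, 15.9 and 16.7 CPM, from 602 to 633 counts. The highest cbx library was thus below the lowest saline one. The log2 difference was -0.56 (SE 0.128, 95% interval -0.83 to -0.29, edgeR adjusted p = 0.0195). Without saline superficial replicate 1, 2 or 3 the adjusted p was 0.0708, 0.0691 and 0.0684 in edgeR, and without saline pool 1 and cbx pool 4 it was 0.0722. The difference stayed between -0.64 and -0.51 in these and all other alternatives, and DESeq2 (adjusted p = 0.00144) and limma-voom (adjusted p = 0.0131) kept the call.

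In deep tissue Chrdl1 had 7.56, 6.69, 8.28 and 10.2 CPM after cbx and 12.8, 9.43 and 10.8 CPM after saline, and cbx deep replicate 4 reached into the saline range. Its log2 difference of -0.43 (SE 0.132, 95% interval -0.71 to -0.16) did not pass in the test over all genes (edgeR adjusted p = 0.0995). It passed in DESeq2 (adjusted p = 0.0371), with length and GC trends removed (edgeR adjusted p = 0.0429) and without cbx deep replicate 4 (-0.55, edgeR adjusted p = 0.0426). The cbx effect was not shown to differ between the layers, at -0.13 (SE 0.185, 95% interval -0.52 to 0.26, edgeR adjusted p = 0.879). Superficial exceeded deep tissue in Chrdl1 by 0.46 (SE 0.122, edgeR adjusted p = 0.00658) in the cbx pools and by 0.59 (SE 0.139, edgeR adjusted p = 0.00439) in the saline pools.

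Of the 12 astrocyte markers, 0 were higher and 2 lower in cbx than in saline superficial tissue by edgeR, with a median log2 difference of -0.08 against 0.0094 over all genes. The 2 were Acsbg1, an acyl-CoA synthetase, at -0.38 (SE 0.069, edgeR adjusted p = 0.00561), and Slc1a3, a glutamate transporter, at -0.32 (SE 0.084, edgeR adjusted p = 0.0358). In the deep layer the transcription factor Sox9 was lower at -0.42 (SE 0.087, edgeR adjusted p = 0.016), and 0 markers were higher. Chrdl1 amounted to 0.212% to 0.299% of the astrocyte sum in cbx superficial and 0.353% to 0.418% in saline superficial libraries, with no overlap. The deep libraries overlapped, at 0.223% to 0.316% after cbx and 0.267% to 0.319% after saline.

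**Figure D3:**
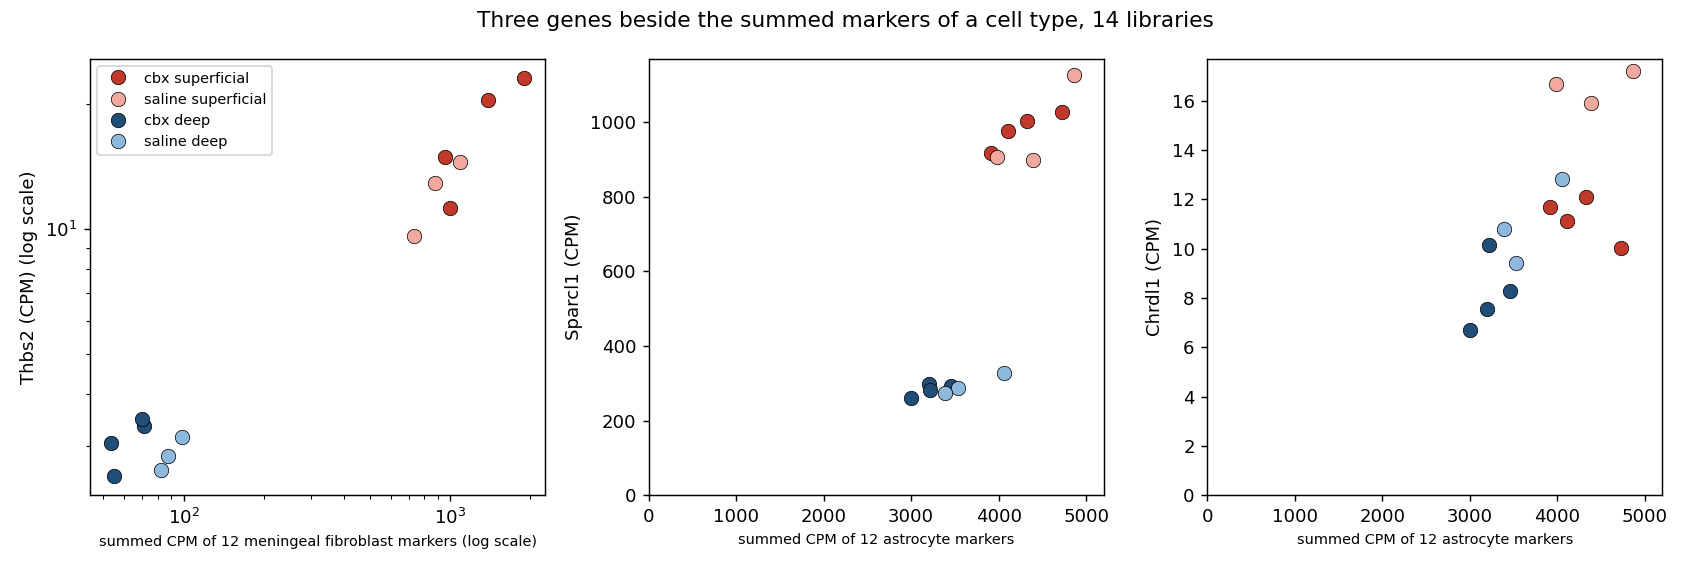
Thbs2, Sparcl1 and Chrdl1 (CPM, vertical axes) against the summed CPM of 12 meningeal fibroblast or 12 astrocyte markers (horizontal axes) in the 14 libraries, coloured by group, with logarithmic axes in the Thbs2 panel. The superficial libraries have the higher Thbs2 and the higher meningeal sums, from 730.5 to 1900.3 CPM, and the cbx superficial libraries have Chrdl1 levels of 10.04 to 12.1 CPM at astrocyte sums within the range of the deep and superficial saline libraries.

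Megf10 (ENSMUSG00000024593, chromosome 18), the engulfment receptor, had 15.5, 16.4, 17.1 and 19.0 CPM in cbx superficial and 15.8, 17.2 and 13.3 CPM in saline superficial libraries. Deep libraries had 11.6, 13.5, 14.2 and 14.3 CPM after cbx and 14.9, 14.1 and 13.1 CPM after saline. It varied little. Superficial exceeded deep tissue in the cbx pools by 0.35 (SE 0.10, edgeR adjusted p = 0.0112) with no overlap, a call lost without saline pool 1 and cbx pool 4 (0.33, edgeR adjusted p = 0.0609). In the saline pools the layers differed by 0.14 (SE 0.116, edgeR adjusted p = 0.478). The cbx difference was 0.14 (95% interval -0.08 to 0.37) in the superficial and -0.07 (95% interval -0.29 to 0.16) in the deep layer.

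Counted over the 10 genes, 0 were higher and 1 lower in cbx than in saline superficial tissue by edgeR, where 4.33% of all genes tested were called, 2.68% higher and 1.65% lower. DESeq2 and limma-voom also gave 0 higher and 1 lower. In edgeR 2 of the 10 genes, Chrdl1 and Thbs2, had an unadjusted p under 0.05, as did 4179 of all 20330 genes. The median log2 difference of the 10 genes was 0.09, against 0.0094 over all genes. In the deep layer 0 of 10 were called by edgeR, where 1.83% of all genes were called, 1.06% higher and 0.777% lower. Unadjusted p was under 0.05 there for 3 of the 10 genes, Chrdl1, Sparc and Gpc4, each of them lower after cbx, and for 3118 of all 20330 genes. The unadjusted counts given for marker and partner lists after cbx have these same backgrounds. DESeq2 called 1, Chrdl1, and limma-voom 0. The deep median was -0.15 for the 10 genes, against 0.0069 over all genes, and 8 of the 10 differences were below 0.

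The counts over all genes after cbx depended on single libraries. In superficial tissue 545 genes were higher and 335 lower. Without saline superficial replicate 1 these counts were 264 and 115, without replicate 2 they were 84 and 56, and without replicate 3 they were 134 and 105. The lower genes numbered 214 without cbx superficial replicate 1 and 204 without replicate 2. In deep tissue 215 were higher and 158 lower. With any 1 deep library left out the counts ran from 18 to 178 higher and from 24 to 102 lower, and they were lowest without saline deep replicate 3. Without saline pool 1 and cbx pool 4 there were 69 higher and 22 lower in superficial and 7 and 7 in deep tissue. Between the layers of the saline pools the same omission left 1139 higher and 994 lower, against 1965 and 1774.

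Between superficial and deep tissue 8 of the 10 genes were higher and 1 lower in the cbx pools, where 18.1% of all genes were called higher and 14.1% lower. The saline pools had 4 higher and 1 lower, where 9.67% of all genes were called higher and 8.73% lower. The median log2 difference of the 10 genes was 0.46 in the cbx pools and 0.33 in the saline pools, against 0.02 and 0.04 over all genes. Both comparisons had Sparcl1, Thbs2, Thbs4 and Chrdl1 among the higher genes. Sparc, Gpc4, Gpc6 and Megf10 were called higher in the cbx pools only, and that they differ between the pools was not shown, since the test of the cbx effect between layers called 0.0% of all genes in edgeR and 0 of the 10. By unadjusted p that test had 1699 genes under 0.05, of which 2, Sparc and Thbs4, were among the 10. Over all genes it called 47 higher and 13 lower in DESeq2, 0 in limma-voom, 55 higher and 6 lower with the pool as a replicate block and 186 higher and 70 lower with no low-count filter. It called 14 higher without cbx superficial replicate 2 and 1 higher without replicate 4. In each of these 0 of the 10 genes were called. More calls in the cbx pools also came with more libraries, 4 in each layer against 3.

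**Figure D4:**
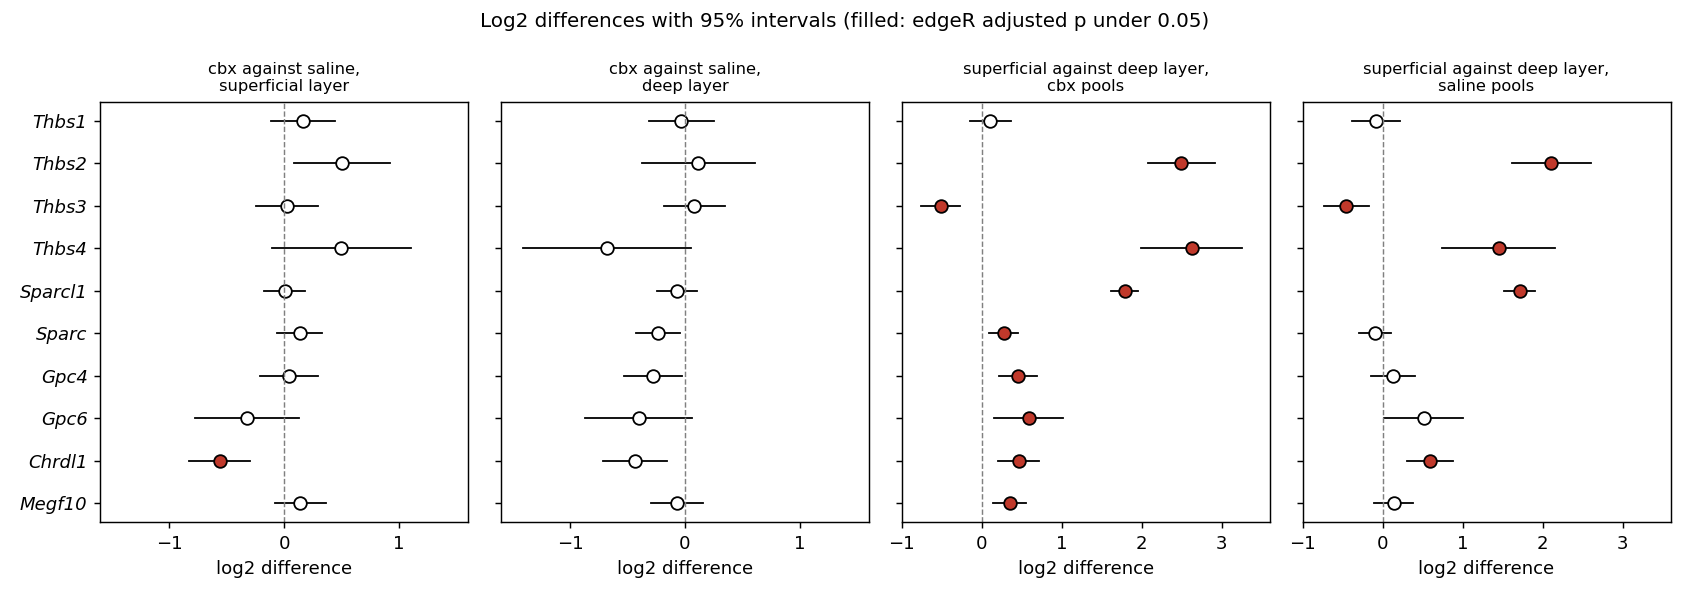
Log2 differences of the 10 genes with 95% intervals for cbx against saline in the superficial and the deep layer, and for superficial against deep tissue in the cbx and the saline pools. Filled points passed the edgeR threshold of 0.05 over all genes: Chrdl1 in the first panel, none in the second, 9 genes in the third and 5 in the fourth.

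Among the proteins that bind thrombospondins, 3 calcium channel subunits were lower in superficial tissue. Of 12 receptors and partners, 3 were higher and 5 lower in superficial than in deep tissue of the cbx pools and 2 higher and 4 lower in the saline pools, with medians of -0.24 in both. The calcium channel subunit Cacna2d1, the receptor through which thrombospondins start synapses, was lower by -0.88 (edgeR adjusted p = 1.27e-08) in the cbx and -0.62 (edgeR adjusted p = 1.6e-05) in the saline pools. Its relative Cacna2d3 was lower by -0.76 (edgeR adjusted p = 6.2e-07) in the cbx and -0.98 (edgeR adjusted p = 3.53e-07) in the saline pools. Cacna2d2 was lower by -0.45 (edgeR adjusted p = 1.09e-05) in the cbx and -0.30 (edgeR adjusted p = 0.00458) in the saline pools. The scavenger receptor Cd36, which binds thrombospondin outside the synapse too, was higher, at 2.94 CPM in cbx superficial against 0.464 CPM in cbx deep and 2.69 CPM in saline superficial against 0.450 CPM in saline deep libraries (edgeR adjusted p = 8.23e-07 and 2.05e-05). After cbx 1 of 12 was lower in each layer by edgeR. DESeq2 had 2 lower in superficial and 1 in deep tissue, and limma-voom 1 and 0. The edgeR calls were the postsynaptic adhesion protein Nlgn1 in superficial tissue (-0.36, edgeR adjusted p = 0.0381) and the proteoglycan Sdc4 in deep tissue (-0.38, edgeR adjusted p = 0.0469). Integrins were also among the called genes of the layers. Itgb1, an integrin subunit, was higher in superficial tissue by 0.57 in the cbx and 0.34 in the saline pools. The rest of the counts were Sdc4 (higher) and Nlgn1 and Itga3 (lower) in the cbx pools and Itgav (lower) in the saline pools.

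Among 9 partners of hevin and SPARC, 2 were lower and 0 higher in cbx than in saline superficial tissue by edgeR, with a median of -0.17. DESeq2 had 4 lower and limma-voom 2. Both edgeR calls were neuroligins, the postsynaptic side of the bridge that hevin forms. Nlgn2 averaged 441 CPM in cbx superficial and 531 CPM in saline superficial libraries (-0.27, edgeR adjusted p = 0.0259). Nlgn1, which the list shares with that of thrombospondin partners, averaged 60.7 CPM in cbx superficial and 77.7 CPM in saline superficial libraries. In deep tissue 0 of 9 were called by edgeR or limma-voom and 2 in DESeq2, and 6 had an unadjusted p under 0.05. Between the layers 2 were higher and 5 lower in superficial tissue of the cbx pools and 2 higher and 3 lower in the saline pools. The higher ones were Ddr2, a collagen receptor, at 3.72 (edgeR adjusted p = 3e-06) in the cbx and 2.51 (edgeR adjusted p = 0.000447) in the saline pools, and Stab1, a scavenger receptor that binds SPARC, at 1.85 (edgeR adjusted p = 0.000138) in the cbx and 1.35 (edgeR adjusted p = 0.00645) in the saline pools. Among the lower ones were the presynaptic Nrxn2 and Nrxn3 in both and the neuroligins Nlgn1 and Nlgn2 in the cbx pools. In the cbx pools the differences of these 4 ranged from -0.40 to -0.19.

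Of 12 partners of glypicans, 2 were lower and 0 higher in cbx than in saline superficial tissue by edgeR, with a median of -0.18, against 3 lower in DESeq2 and 2 in limma-voom. Nptxr, the pentraxin receptor that clusters AMPA receptors, averaged 296 CPM in cbx superficial and 364 CPM in saline superficial libraries (-0.30, edgeR adjusted p = 0.0121). Nptx2, a secreted pentraxin, averaged 64.4 CPM in cbx superficial and 78.9 CPM in saline superficial libraries (-0.29, edgeR adjusted p = 0.0439). Both are made by neurons. In deep tissue 0 of the 12 were called by edgeR, DESeq2 or limma-voom, 3 had an unadjusted p under 0.05, and the median was -0.02. Superficial tissue had 1 higher and 7 lower in the cbx pools and 1 higher and 6 lower in the saline pools. The higher one was Gria1, an AMPA receptor subunit, by 0.41 (edgeR adjusted p = 7.87e-05) in the cbx and 0.45 (edgeR adjusted p = 0.000268) in the saline pools. Gria2, another AMPA receptor subunit, was lower by -0.53 (edgeR adjusted p = 9.88e-05) in the cbx and -0.31 (edgeR adjusted p = 0.0381) in the saline pools. Nptx1, the pentraxin that Gpc4 releases from axons, was lower by -0.97 (edgeR adjusted p = 1.09e-08) in the cbx and -0.70 (edgeR adjusted p = 1.12e-05) in the saline pools. Gpr158, a receptor for Gpc4, was lower by -1.10 (edgeR adjusted p = 5.57e-08) in the cbx and -0.67 (edgeR adjusted p = 0.00024) in the saline pools.

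BMP signalling, which Chrdl1 restrains by binding its ligands, was represented by 19 genes. Superficial tissue had 13 higher and 0 lower in the cbx pools and 10 higher and 1 lower in the saline pools, with medians of 0.75 and 0.65. The lower one was the receptor Acvr2a, at -0.21 (edgeR adjusted p = 0.0417). Id3, a target gene of BMP signalling, averaged 156 CPM in cbx superficial against 26.4 CPM in cbx deep and 139 CPM in saline superficial against 36.8 CPM in saline deep libraries (edgeR adjusted p = 5.43e-12 and 2.23e-09). The ligand gene Bmp6 averaged 59.0 CPM in cbx superficial against 1.76 CPM in cbx deep and 39.2 CPM in saline superficial against 1.99 CPM in saline deep libraries (edgeR adjusted p = 1.03e-08 and 3.6e-07). The antagonist Nog was also higher in superficial tissue, by 1.54 (edgeR adjusted p = 5.77e-10) in the cbx and 1.30 (edgeR adjusted p = 9.18e-08) in the saline pools. After cbx 2 of the 19 were higher in superficial tissue by edgeR, 3 in DESeq2 and 1 in limma-voom, and 0 lower in each. They were the ligands Bmp4, at 5.55 CPM in cbx superficial against 2.61 CPM in saline superficial libraries (1.09, edgeR adjusted p = 0.014), and Bmp7, at 49.3 CPM in cbx superficial against 24.5 CPM in saline superficial libraries (1.01, edgeR adjusted p = 0.049). In deep tissue 2 were lower, Id3 (-0.48, edgeR adjusted p = 0.0349) and the receptor Bmpr1a (-0.34, edgeR adjusted p = 0.0354), and 0 higher by edgeR, while 3 were lower in DESeq2 and 1 in limma-voom. The meningeal sums given above were highest in the same superficial libraries, and their part in these values was not tested.

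Beside Megf10, 19 genes of engulfment were followed. After cbx 3 were higher and 1 lower in superficial tissue, with a median of 0.0042, and 0 were called in deep tissue by edgeR, DESeq2 or limma-voom, where 4 had an unadjusted p under 0.05. The 3 higher ones were C1qa, C1qb and C1qc, complement subunits that tag synapses for removal, with differences of 0.64 (edgeR adjusted p = 0.000686), 0.50 (edgeR adjusted p = 0.0219) and 0.49 (edgeR adjusted p = 0.00686). Of 8 microglial markers 4 were higher and 0 lower in the same comparison, and their summed level was 240.5 to 269 CPM in cbx superficial and 197 to 212 CPM in saline superficial libraries. Whether C1q moved apart from these was not tested. The lower gene was Megf11, the closest relative of Megf10, at 112 CPM in cbx superficial and 145 CPM in saline superficial libraries (-0.37, edgeR adjusted p = 0.00378). Superficial tissue had 6 higher and 3 lower in the cbx pools and 6 higher and 6 lower in the saline pools. Mfge8, a bridging protein for engulfment, was lower by -0.71 (edgeR adjusted p = 2.11e-07) in the cbx and -0.72 (edgeR adjusted p = 2.4e-06) in the saline pools. The other 2 lower genes in the cbx pools were Tyro3, a receptor, and Gas6, its ligand, both of them lower in the saline pools too. C1qa, C1qb and C1qc completed the 6 lower genes of the saline pools. Microglial markers were lower there too, 7 of 8 with a median of -0.85, at sums of 197 to 212 CPM in saline superficial and 334 to 357 CPM in saline deep libraries. In the cbx pools 1 was higher and 6 lower, at 240.5 to 269 CPM in cbx superficial and 302 to 350 CPM in cbx deep libraries. The Megf10 relative Pear1 was higher by 1.39 (edgeR adjusted p = 5.01e-07) in the cbx and 1.37 (edgeR adjusted p = 8.1e-06) in the saline pools.

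Relatives of the 10 genes in structure numbered 13. In superficial tissue 1 was higher and 4 lower after cbx in edgeR and limma-voom and 2 and 5 in DESeq2, with a median of -0.18. Besides Megf11, the lower ones were the testican gene Spock1 (-0.27, edgeR adjusted p = 0.0249), Gpc5 (-0.40, edgeR adjusted p = 0.0278) and Gpc1 (-0.27, edgeR adjusted p = 0.037). The higher one was Smoc1, of the SPARC family (0.25, edgeR adjusted p = 0.039). In deep tissue 0 of the 13 were called by edgeR, DESeq2 or limma-voom, and 2 had an unadjusted p under 0.05. Between the layers 3 were higher and 3 lower in the cbx pools and 4 higher and 2 lower in the saline pools. Fstl1, of the SPARC family, was higher in superficial tissue by 2.10 (edgeR adjusted p = 4.75e-07) in the cbx and 1.58 (edgeR adjusted p = 4.75e-05) in the saline pools. Gpc5 was lower by -0.78 (edgeR adjusted p = 1.74e-06) in the cbx and -0.50 (edgeR adjusted p = 0.00185) in the saline pools. Smoc2 was higher and Smoc1 lower in both. Gpc3 was higher and Gpc1 lower in the cbx pools, and Megf11 and Gpc2 were higher in the saline pools.

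Other secreted or membrane factors of glia for synapses numbered 12, of which 11 passed the filter. In superficial tissue 0 of the 11 were called after cbx by edgeR or limma-voom and 2 in DESeq2, 1 in each direction. In deep tissue 0 were called by edgeR or limma-voom and 1 in DESeq2, and in each layer 3 had an unadjusted p under 0.05. Hepacam, a cell adhesion protein of astrocytes, came nearest, at -0.26 (edgeR adjusted p = 0.0501) in deep and -0.23 (edgeR adjusted p = 0.06) in superficial tissue. Superficial tissue had 7 higher and 3 lower in the cbx pools and 6 higher and 3 lower in the saline pools. The growth factor Tgfb2 was higher by 1.055 (edgeR adjusted p = 1.09e-09) in the cbx and 0.86 (edgeR adjusted p = 2.58e-07) in the saline pools, and its relative Tgfb3 by 1.86 (edgeR adjusted p = 1.75e-07) in the cbx and 1.58 (edgeR adjusted p = 1.8e-05) in the saline pools. The 3 lower genes were Il33, Wnt7a and Bdnf in both the cbx and the saline pools.

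The genes most like each of the 10 over the 14 libraries were found by the root mean square difference of log2 CPM after each gene's mean was subtracted, among 15142 genes. The nearest to Thbs2 were Gypc, Col4a5 and Cp, at 0.188 to 0.207, where the median gene was at 1.18. Thbs4 had Cryab and Lgals1 nearest, at 0.293 and 0.31 (median gene 1.07). Sparcl1 had Npffr1, Hs3st3b1 and Hhip, at 0.117 to 0.158 (median gene 0.886). For these 3 genes the layer difference made the distance to most genes large. Sparc had Creg1 and Enpp2 among its nearest genes, at 0.0923 and 0.0931 (median gene 0.251). Chrdl1 had Ptar1, Fzd6 and Cth, at 0.169 to 0.173 (median gene 0.437). Thbs3 had Ano5, Mast3 and Gm49601 (0.113 to 0.117), Thbs1 had Pdk1, Me2 and Rgl1 (0.0977 to 0.111), Gpc4 had Pcca, Mpp6 and Mapk4 (0.0882 to 0.102), Gpc6 had Cdh12, Timp3 and Fat3 (0.139 to 0.143) and Megf10 had Prkd3, Fam20a and Fam120a (0.0733 to 0.0857). Among the 10 genes themselves the closest pair was Gpc4 and Megf10 at 0.139, and the most distant was Thbs2 and Thbs3 at 1.42. Sparcl1 and Sparc, which act against each other, were 0.83 apart, and Gpc4 and Gpc6 were 0.294 apart.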

How the data were processed

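Per the submitters' processing notes, the authors used STAR 2.7.9d, Subread 2.0.1 with featureCounts, SAMtools 1.14 and FastQC 0.11.9, and the builds GRCm39 and mm10 are both named with no role. For the strand setting and the annotation the sources used here give nothing. The deposited values are raw counts of reads per Ensembl gene ID, 1 table per library. Symbols, exon lengths (union of exons) and GC content came from GENCODE M21, and promoters from RefSeq; no coordinates of the counts were used.

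Counts were tested with edgeR 4.0.16 (R 4.3.3): TMM scaling, filterByExpr by group, a robust quasi-likelihood fit of 4 group means to 14 libraries (10 residual degrees of freedom) and Benjamini-Hochberg adjustment over 20330 genes. Intervals are 95% intervals of the fitted difference. The script was tested on simulated counts, but the outcome is not given here and lends no support to the results. In all 18 replicate pairs the chi-square per gene, 7.55 to 51.1, was above sampling noise. Both layers of one replicate number and treatment deviated together from their group means, with correlations of 0.182 to 0.394 in 7 of 7 pairs. The data, not the labels, thus mark them as paired pools. The 6 such pairs across treatments, at -0.276 to -0.0167, share only a number. The main fit did not use this pairing and treated the 14 libraries as independent, also between the layers. Only an alternative held the pool as a replicate block. Over all genes that block called 2439 higher and 2223 lower between the layers of the saline pools, against 1965 and 1774. In the cbx pools it called 4205 and 3397, against 3671 and 2873.

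Members and lists were chosen with earlier results of these data known. Named were all 10 members, up to 4 genes of each list with the smallest p, and the 3 genes most like each member among genes of at least 1 CPM. List genes beyond these, named where a count was small, were chosen after their values were seen, and a few genes that these rules name are not reported here. Alternatives were median-of-ratios scaling, either no low-count filter or one of 1 CPM in 3 libraries, limma-voom (limma 3.58.1), the Wald test of DESeq2 1.42.0, a fit to the groups compared alone, leaving out each library, or saline pool 1 and cbx pool 4, a replicate block, and removal of length and GC trends (99.6% of tested genes had both).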

Additional observations from a re-analysis of the deposited data

How the results depend on the processing

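Of the 15 called results of single genes, 9 kept their call in all alternatives and 0 reversed. Of the 35 not called, 21 stayed so with their direction and 10 reversed in at least 1 alternative. The causes were not tested. For cbx against saline superficial tissue, genes called higher were 1 with no low-count filter and 0 to 1 with a library left out. Genes called lower there were 0 without saline pool 1 and cbx pool 4 and 0 to 1 with a library left out. In the deep layer, genes called lower were 1 with no low-count filter, with the DESeq2 Wald test and with length and GC trends removed, and 0 to 1 with a library left out. In the saline pools, genes called lower in superficial tissue were 0 without saline pool 1 and cbx pool 4 and 0 to 1 with a library left out. In the cbx pools, 5 genes were called higher without saline pool 1 and cbx pool 4, against 8.

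The reversals were of differences near 0. For cbx against saline superficial tissue, Sparcl1 was at -0.0041 with median-of-ratios scaling and in DESeq2, -0.0021 with only the groups compared, -0.0186 with a filter of 1 CPM in 3 libraries and -0.069 with trends removed, and Gpc4 was at -0.0182 with the replicate block and -0.0418 with trends removed. Without saline pool 1 and cbx pool 4, Thbs3 was at -0.0148 and Gpc4 at -0.0278 in superficial tissue, Thbs1 at 0.0214 and Sparcl1 at 0.0063 in deep tissue, Thbs1 at 0.0116 between the layers of the saline pools, and Gpc6 at -0.13 in the difference of the effects. With a library left out, superficial cbx differences ran from -0.031 to 0.0733 for Thbs3, from -0.0534 to 0.12 for Sparcl1 and from -0.0254 to 0.14 for Gpc4. Deep ones ran from -0.10 to 0.0862 for Thbs1, from -0.0554 to 0.20 for Thbs3 and from -0.12 to 0.0059 for Sparcl1. Thbs1 ran from -0.15 to 0.0339 between the layers of the saline pools. The difference of the effects ran from -0.18 to 0.0629 for Thbs3, from -0.0017 to 0.19 for Sparcl1 and from -0.0794 to 0.26 for Gpc6. The paired fit with the replicate block changed 1 other call, Gpc6 between the layers of the saline pools (0.52).

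Over all genes, removal of length and GC trends moved the calls for cbx in superficial tissue to 528 higher and 567 lower, against 545 and 335, and in deep tissue to 342 and 409, against 215 and 158. Between the layers it moved them to 2965 and 3955 in the cbx pools, against 3671 and 2873, and to 1792 and 2580 in the saline pools, against 1965 and 1774. With only the groups compared, the superficial cbx calls were 90 higher and 52 lower. Genes such as Thbs4, with 10 to 25 counts in deep libraries, limit what depth can show.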

Other observations

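The ratios below were chosen after the data had been seen. They are given as values with an exact two-sided permutation test over the libraries, which with 4 against 3 libraries has 35 labelings. The lowest value it gave, exact permutation p = 0.0571, was that of ratios whose libraries separated fully. Hevin over SPARC (Sparcl1 over Sparc, in CPM) was 1.31 to 1.69 in cbx superficial and 1.43 to 1.68 in saline superficial libraries (p = 0.4 by the exact permutation test). Deep tissue had 0.494 to 0.517 after cbx and 0.441 to 0.451 after saline, so that all cbx deep libraries were above all saline deep ones, by a log2 difference of 0.17 (exact permutation p = 0.0571, adjusted 0.114 over 6 such tests). Thbs2 over the summed meningeal markers differed by 0.64 in deep tissue, again with all cbx above all saline libraries (exact permutation p = 0.0571, adjusted 0.114), and by -0.04 in superficial tissue (exact permutation p = 0.8). Chrdl1 over the summed astrocyte markers was lower in all cbx than in all saline superficial libraries, at a log2 difference of -0.52 (exact permutation p = 0.0571, adjusted 0.114), and differed by -0.25 in deep tissue (exact permutation p = 0.114, adjusted 0.171). None of the 6 passed. As computed, the exact permutation test stayed above the threshold of 0.05 even where the libraries separated fully. Not passing therefore cannot show whether these ratios differ.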
